A study of Homo sapiens with 6 samples.

Results

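The nuclear genes for the subunits of the respiratory chain and of ATP synthase were examined in MDA-MB-231 cells, a triple-negative breast cancer line, with and without knockdown of the chromatin protein HMGA2. Genes were chosen by symbol alone, as those that begin with NDUFA, NDUFB, NDUFC, NDUFS or NDUFV and a digit, those named SDHA to SDHD, those that begin with UQCR, those of the COX4 to COX8 series and those that begin with ATP5. Of 255 symbols that matched, 160 pseudogenes and 3 antisense genes were left out, and 92 of the 61806 genes in the table remained. They comprised 41 genes of complex I, 4 of complex II, 10 of complex III, 17 of complex IV and 20 of complex V, among them 87 subunit genes, 3 divergent non-coding transcripts and 2 read-through genes. RNA was sequenced from 3 lines with 2 libraries each. The shNC line carried a control hairpin, and the shHMGA2-1 and shHMGA2-2 lines carried different lentiviral hairpins against HMGA2. According to the study's methods, knockdown lines were expanded from single cell clones after puromycin selection, so that the hairpin and the clone cannot be told apart. The sources used here do not state whether the shNC line was also a clone, nor whether the libraries of a line came from separate cultures, and p-values therefore measure only the spread between these libraries. Library names differed from the sample titles, which were followed: those of shNC read WT, those of shHMGA2-1 read SH2, and those of shHMGA2-2 name no hairpin number of the titles. Which hairpin a knockdown line carried therefore rests on the titles.

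Complex I takes electrons from NADH and complex II takes them from succinate, an intermediate of the citric acid cycle. Both pass them to coenzyme Q, complex III hands them on to cytochrome c, and complex IV delivers them to oxygen. Complexes I, III and IV pump protons across the inner mitochondrial membrane, and complex V, the ATP synthase, uses the gradient to make ATP. Complex II is built from nuclear genes alone, whereas the other complexes also hold subunits that the mitochondrial genome encodes, so that a cell must match the output of both genomes. Many cancer cells keep an active respiratory chain beside a high rate of glycolysis.

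Libraries held 16461178 to 17167293 counts, a depth at which a count of 0 allows up to 0.175 to 0.182 CPM (counts per 1e+06 counts), taken as 3 counts and covering counting error only. HMGA2 itself stood at 131 and 133 CPM in shNC, 49.5 and 58.3 CPM in shHMGA2-1 and 25.7 and 27.6 CPM in shHMGA2-2, so that the groups did not overlap. It fell by 1.29 and 2.31 on the log2 scale (adjusted p = 2.17e-11 and 2.11e-16, edgeR's quasi-likelihood test). The mesenchymal markers VIM, CD44, AXL and CAV1 averaged 65.4 to 425 FPKM (fragments per kilobase of exon, scaled to library size) in shNC, ESR1, PGR and CDH1 averaged at most 0.04 FPKM in any line, and each of 12 markers of leukocytes, endothelium and striated muscle averaged at most 0.205 FPKM in any line. ERBB2, EPCAM and KRT8, which the list held as low or absent, were measurable at 3.31 to 28.5 FPKM. Because RNA was taken from bulk cultures, fewer cells with a transcript and less of it per cell cannot be told apart.

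In every knockdown library the member genes took a larger share of all counts than in either control library. Their counts summed to 0.598% and 0.573% of the total with shNC, 0.693% and 0.664% with shHMGA2-1, and 0.727% and 0.757% with shHMGA2-2. The share rose in steps from shNC to shHMGA2-1 to shHMGA2-2 without overlap between the lines. Genes of the mitochondrial genome moved alongside, from 6.74% and 6.82% with shNC to 7.05% and 7.51% with shHMGA2-1, and 7.86% and 7.39% with shHMGA2-2, and their part in the result was not tested. Complex V supplied the largest sum among the complexes in every library, between 0.226% and 0.309% of the counts, followed by complex I with 0.156% to 0.21%.

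Among the subunits themselves, levels per length spread widely. The catalytic beta subunit of the ATP synthase, ATP5F1B, was the highest member with 237 and 237 FPKM in shNC, 264 and 237 FPKM in shHMGA2-1 and 302 and 312 FPKM in shHMGA2-2. COX8A, a small membrane subunit of complex IV, came next with 202 and 190.5 FPKM in shNC, 254 and 226 FPKM in shHMGA2-1 and 291 and 308 FPKM in shHMGA2-2. NDUFS5, an accessory subunit on the intermembrane-space side of complex I, led that complex at 116 ± 3.22 FPKM in shNC (SD, n = 2). UQCRH, the hinge protein of complex III, led its complex at 66.1 ± 1.51 FPKM in shNC, and SDHD, a membrane anchor of complex II, led at 42.04 ± 1.67 FPKM, close to the other anchor SDHC at 39.7 ± 0.361 FPKM. SDHA, the flavoprotein of complex II, was the lowest of that complex at 6.28 ± 0.156 FPKM. The lowest tested subunits of complexes IV and V were COX7B at 10.6 ± 0.0283 FPKM and ATP5PO, a part of the peripheral stalk, at 9.88 ± 1.18 FPKM. Such an order depends on the length used. FPKM in the table divides by all exonic bases of a gene, and for UQCRB, a small subunit of complex III, this length was 19.5 times the median length of its coding transcripts. Per kilobase of the median coding transcript, a scale added after the data had been seen, UQCRB stood at 321 CPM per kilobase in shNC, above ATP5F1B at 288, although its FPKM was only 16.4 ± 1.19.

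Where a subunit has isoforms for different tissues, these cells used the widely expressed one. COX4I1, COX6A1, COX6B1, COX7A2 and COX8A averaged 25.3 ± 0.778, 68.9 ± 3.41, 44.5 ± 1.22, 41.6 ± 3.41 and 196 ± 7.80 FPKM in shNC (SD, n = 2). Their partners for lung, muscle, heart or testis were almost silent. COX4I2 and COX6A2 had 0 counts in all 6 libraries, COX7B2 had 1 count in a single library, COX8C 1 count in a single library, and COX6B2 between 0 and 8 counts. COX7A1, the isoform of muscle, had 2 to 13 counts with overlap between all lines. NDUFA4, which carries a complex I name but is known as a subunit of complex IV, averaged 23.4 ± 1.69 FPKM, whereas NDUFA4L2, its paralog known from hypoxic cells, had 0 to 2 counts. The 3 genes ATP5MC1, ATP5MC2 and ATP5MC3 encode the same mature c subunit of the rotor, and they averaged 24.3 ± 1.87, 14.6 ± 0.658 and 38.6 ± 2.91 FPKM. In all, 81 members passed the filter on low counts and 11 did not, namely those 5 complex IV isoforms with COX7A1, ATP5MGL, NDUFA4L2, the read-through gene ATP5MF-PTCD1 and the divergent transcripts NDUFV1-DT and UQCRFS1-DT. Those 11 entered no comparison given here, though some were tested in the alternatives with other filters.

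After HMGA2 knockdown, more member genes rose than fell, by modest amounts. In shHMGA2-1, 34 of the 81 tested members rose and 1 fell (42% and 1.23%), where 15.8% of all tested genes rose and 17.6% fell. In shHMGA2-2, 41 rose and 7 fell (50.6% and 8.64%), beside 29.5% and 29.2% of all tested genes. The median log2 fold change of the tested members was 0.19 in shHMGA2-1 and 0.20 in shHMGA2-2, whereas over all 16110 tested genes it was 0.01 and 0.03. Calls were made at an adjusted p under 0.05 (quasi-likelihood test of edgeR, adjusted after Benjamini and Hochberg across every tested gene), and both comparisons share the shNC libraries. Against shNC, 22 members were higher in both lines, beside 9.93% of all tested genes, and 0 were lower in both, beside 12.6%. In CPM, all 4 knockdown libraries lay above both shNC libraries for 40 of the 81 members (20 of 39 in complex I, 2 of 4 in complex II, 4 of 9 in complex III, 6 of 11 in complex IV and 8 of 18 in complex V), beside 21.2% of all tested genes. All 4 lay below both for 2 members, SDHD and UQCRC2, beside 21.9%.

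**Figure D1:**
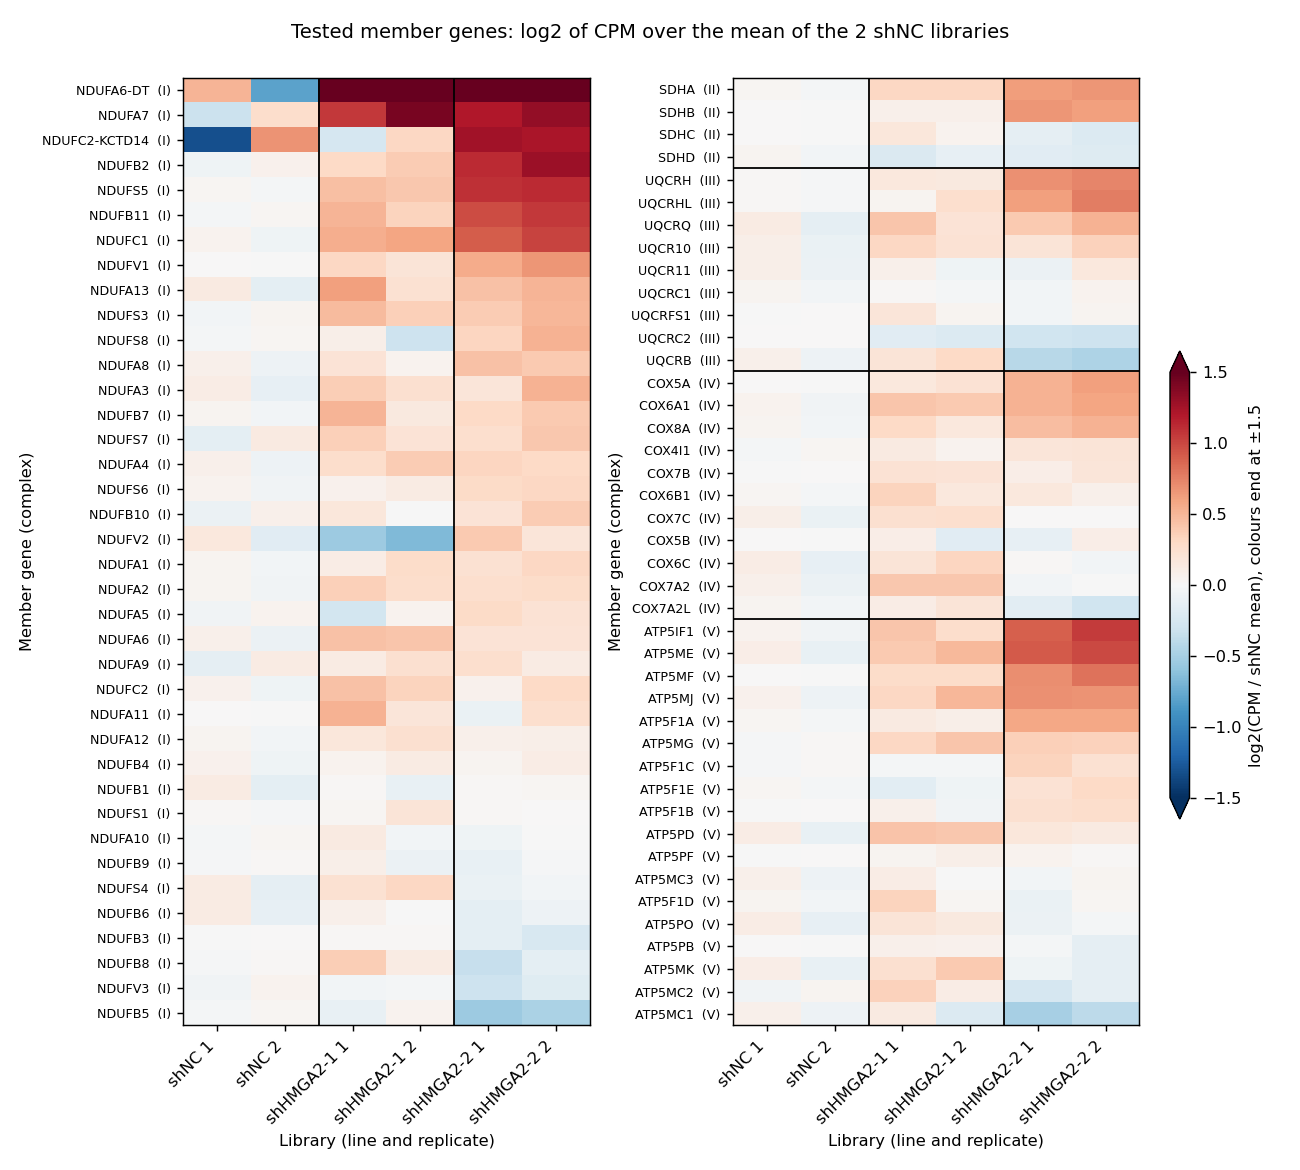
Heat map of 80 of the 81 tested members in the 6 libraries, coloured by log2 of the CPM over the mean of the 2 shNC libraries and ordered within each complex by the change in shHMGA2-2. Red marks values above the shNC mean and prevails in the 4 knockdown columns, with the deepest red in NDUFA6-DT and NDUFA7 of complex I in both lines, while NDUFV2 is blue in shHMGA2-1 alone and UQCRB in shHMGA2-2 alone.

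The excess in shHMGA2-1 depended on a control library. Without shNC replicate 2, 9 members rose in shHMGA2-1 (11.1%) beside 8.93% of all tested genes, and without shNC replicate 1, 22 rose (27.2%) beside 9.39%. In shHMGA2-2, 27 rose without shNC replicate 2 (33.3%) beside 23.4%, and 27 rose without its own replicate 2 (33.3%) beside 23.2%. The members higher in both lines then numbered 7 without shNC replicate 2 (8.64%) beside 5.8% of all tested genes, and 13 without shNC replicate 1 (16%) beside 6.16%. The median log2 fold change of the members moved less, to 0.16 in shHMGA2-1 and 0.18 in shHMGA2-2 without shNC replicate 2.

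**Figure D2:**
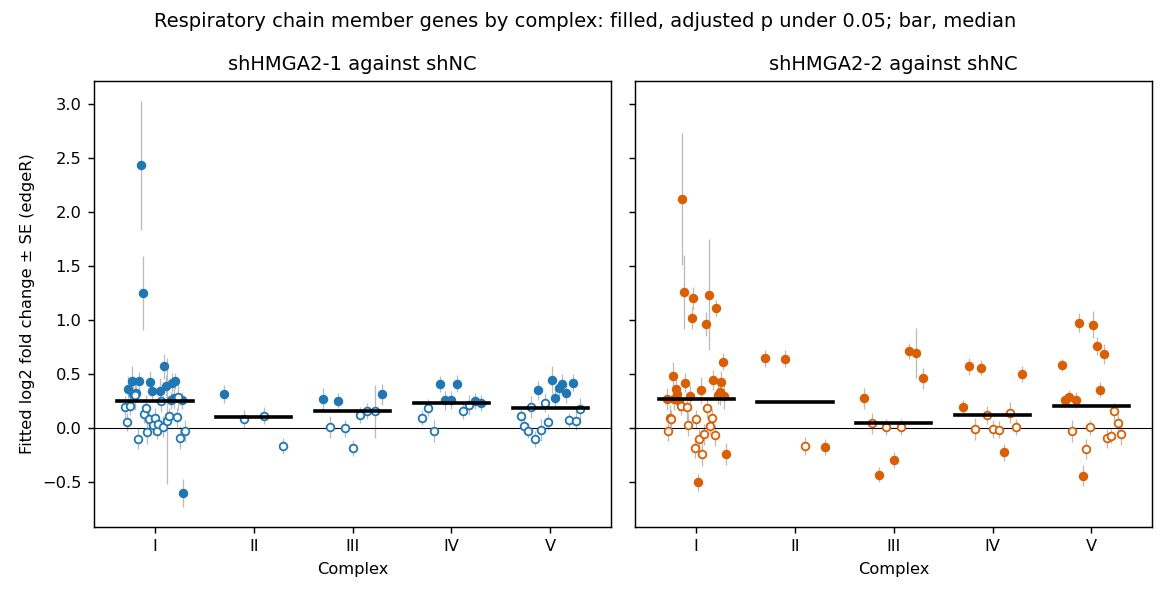
Fitted log2 fold change (points, with SE as bars) of each tested member against shNC, by complex, in shHMGA2-1 at left and shHMGA2-2 at right. Filled points passed an adjusted p of 0.05, and the thick bars, the medians, lie above 0 in every complex and both lines, from 0.10 to 0.25 in shHMGA2-1 and from 0.04 to 0.27 in shHMGA2-2.

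Complex I showed the largest single changes. Of its 39 tested genes, 17 rose and 1 fell in shHMGA2-1 (43.6% and 2.56%, beside 15.8% and 17.6% of all tested genes). In shHMGA2-2, 22 rose and 2 fell (56.4% and 5.13%, beside 29.5% and 29.2%). The medians of complex I were 0.25 and 0.27 on the log2 scale. Its core subunits carry the flavin and the iron-sulphur clusters, and NDUFS3, a core subunit of the matrix arm, measured 44.3 and 47.2 CPM in shNC, 63.8 and 58.5 CPM in shHMGA2-1 and 59.6 and 64.7 CPM in shHMGA2-2. All knockdown libraries were above the controls, and NDUFS3 rose by 0.42 ± 0.09 in shHMGA2-1 and 0.44 ± 0.09 in shHMGA2-2 (log2 fold change ± SE, adjusted p = 0.000738 and 0.000164, edgeR). NDUFV1, which binds NADH and the flavin, also rose in both lines, by 0.25 ± 0.08 and 0.61 ± 0.08. NDUFS1, the large iron-sulphur subunit, had log2 fold changes of 0.11 ± 0.07 in shHMGA2-1 and 0.01 ± 0.07 in shHMGA2-2 that did not pass the test. NDUFS8, another core subunit, had -0.10 ± 0.11 in shHMGA2-1, which did not pass. It rose by 0.42 ± 0.11 in shHMGA2-2 (adjusted p = 0.00128), and the lines differed by 0.52 ± 0.11 (adjusted p = 0.000209). NDUFS3, NDUFV1, NDUFS1 and NDUFS8 were chosen after their values were seen.

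Among the core subunits, NDUFV2, the iron-sulphur partner of NDUFV1, went in opposite directions in the knockdown lines. It measured 26.8 and 21.4 CPM in shNC, 16.5 and 15.2 CPM in shHMGA2-1 and 31.6 and 27.4 CPM in shHMGA2-2. Both shHMGA2-1 libraries lay below the controls and both shHMGA2-2 libraries above them. NDUFV2 fell by 0.61 ± 0.13 on the log2 scale in shHMGA2-1 (adjusted p = 0.000559, edgeR) and rose by 0.29 ± 0.12 in shHMGA2-2 (adjusted p = 0.0400), and the difference between the lines was 0.89 ± 0.12 (adjusted p = 1.54e-06). The rise in shHMGA2-2 was lost without shNC replicate 2 (log2 fold change 0.14, adjusted p = 0.467) and without shHMGA2-2 replicate 1 (0.18, adjusted p = 0.336), as it was with DESeq2 (0.27, adjusted p = 0.207).

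The members with a change of at least 2-fold were all genes of complex I, namely accessory subunits, which surround the core, a divergent transcript and a read-through gene. In shHMGA2-1 these were 2 of 81 tested members, NDUFA6-DT and NDUFA7, a smaller share than the 4.89% of all tested genes that rose as much. In shHMGA2-2 they were 6 of 81, namely NDUFA6-DT, NDUFA7, NDUFC2-KCTD14, NDUFB2, NDUFS5 and NDUFB11. That share too was below the 11.7% of all tested genes. NDUFS5 measured 67.4 and 64.9 CPM in shNC, 90.5 and 87.9 CPM in shHMGA2-1 and 141 and 144 CPM in shHMGA2-2. The lines formed separate steps, with shHMGA2-2 highest, and NDUFS5 rose by 0.43 ± 0.08 in shHMGA2-1 and 1.11 ± 0.07 in shHMGA2-2 (adjusted p = 8.51e-05 and 4.72e-12, edgeR). NDUFB2, of the membrane arm, measured 22.8 and 24.9 CPM in shNC, 29.3 and 30.9 CPM in shHMGA2-1 and 51.9 and 57.9 CPM in shHMGA2-2. It showed the same order without overlap and rose by 0.34 ± 0.10 and 1.20 ± 0.10 (adjusted p = 0.0145 and 2.37e-10). The change in shHMGA2-1 was lost without either shNC library (adjusted p = 0.189 and 0.0501) and with DESeq2 (0.0756). NDUFB2 overlaps ADCK2 on the same strand, and with a strand setting not given in the sources used here reads may have been divided between them. Counts of ADCK2 were 137 and 140 with shNC, 270 and 218 with shHMGA2-1, and 409 and 442 with shHMGA2-2. BRAF overlaps NDUFB2 on the other strand, with 627 and 662 counts with shNC, 744 and 836 with shHMGA2-1, and 1119 and 1104 with shHMGA2-2. The part of both genes in the NDUFB2 values was not tested. NDUFB11, a membrane-arm subunit encoded on the X chromosome, overlaps RBM10 on the other strand. Counts of RBM10 were 887 and 954 with shNC, 1103 and 1018 with shHMGA2-1, and 1323 and 1262 with shHMGA2-2, and its part was not tested. NDUFB11 measured 25.4 and 26.5 CPM in shNC, 37.1 and 32.6 CPM in shHMGA2-1 and 51.1 and 54.02 CPM in shHMGA2-2. All knockdown libraries exceeded the controls, and NDUFB11 rose by 0.42 ± 0.10 and 1.02 ± 0.10 (adjusted p = 0.00211 and 3.71e-09), the first of which was lost without shNC replicate 1 (0.0515).

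The remaining changes of 2-fold or more rested on few counts. NDUFA7, an accessory subunit near the matrix arm, reached counts of 14 and 21 with shNC, 39 and 49 with shHMGA2-1, and 42 and 47 with shHMGA2-2. The knockdown libraries did not overlap with the controls, and NDUFA7 rose by 1.25 ± 0.35 and 1.26 ± 0.34 on the log2 scale (adjusted p = 0.00679 and 0.00301, edgeR). NDUFA7 overlaps RPS28, a ribosomal protein gene on the other strand with 1554 to 2385 counts. It also overlaps a gene without a symbol on the same strand, with 0 to 5 counts. Reads of NDUFA7 may have been divided among these genes, which was not tested. In shHMGA2-1 the call was lost without shNC replicate 1 (adjusted p = 0.0905), without shHMGA2-1 replicate 2 (0.0517) and with DESeq2 (0.0715). NDUFC2-KCTD14, a read-through of NDUFC2 into its neighbour, reached counts of 4 and 16 with shNC, 9 and 13 with shHMGA2-1, and 25 and 25 with shHMGA2-2. Only the shHMGA2-2 libraries lay above both controls, with a log2 fold change of 1.23 ± 0.52 (adjusted p = 0.0436) that was 0.55 without shNC replicate 1 (adjusted p = 0.398) and was lost without either shHMGA2-2 library (adjusted p = 0.136 and 0.143). Its reads may be shared with NDUFC2 and KCTD14, which it overlaps on the same strand.

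NDUFA6-DT, a non-coding transcript that runs away from NDUFA6, had the largest fitted change of all members. On the other strand it overlaps CYP2D6, counted 2 and 2 with shNC, 16 and 1 with shHMGA2-1, and 19 and 12 with shHMGA2-2. OLA1P1 also overlaps it on that strand, with 54 to 81 counts. Reads may have been shared with these genes, which was not tested. NDUFA6-DT itself had counts of 5 and 2 with shNC, 22 and 19 with shHMGA2-1, and 17 and 16 with shHMGA2-2. The knockdown libraries were all above the controls, but the control counts lay near the limit of 3 counts, and the fitted log2 fold changes of 2.43 ± 0.59 and 2.12 ± 0.61 (adjusted p = 0.00256 and 0.00480, edgeR) are correspondingly loose. Without shNC replicate 2 neither passed the test (adjusted p = 0.0505 and 0.0632), and with DESeq2 the second did not (0.0514). Its coding neighbour NDUFA6, an accessory subunit of complex I, measured 43.1 and 38.5 CPM in shNC, 55.4 and 54.3 CPM in shHMGA2-1 and 47.04 and 46.9 CPM in shHMGA2-2 and rose in shHMGA2-1 alone among the comparisons with shNC, by 0.43 ± 0.09 (adjusted p = 0.000688), with 0.20 ± 0.09 in shHMGA2-2 (adjusted p = 0.0599). The start sites of both transcripts lie 160 bases apart in RefSeq, and the stretch between them (chr22:42090773-42090932, GRCh38.p14, shown on the plus strand, in the direction of NDUFA6-DT) is printed because both transcripts leave it in opposite directions.
NDUFA6-DT: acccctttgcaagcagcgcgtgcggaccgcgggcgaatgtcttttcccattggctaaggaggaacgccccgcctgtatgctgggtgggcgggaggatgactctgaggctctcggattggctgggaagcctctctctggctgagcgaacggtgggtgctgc

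NDUFA4, counted with complex I by its symbol though known as a subunit of complex IV, measured 88.8 and 80.2 CPM in shNC. It measured 101 and 109.9 CPM in shHMGA2-1 and 105 and 104 CPM in shHMGA2-2. It was above the controls in all 4 knockdown libraries and rose by 0.32 ± 0.08 and 0.31 ± 0.08 (adjusted p = 0.00256 and 0.00172, edgeR), although neither call held without shNC replicate 2 (adjusted p = 0.116 and 0.0809). NDUFC1, a small membrane-arm subunit outside the naming rule and chosen after its values were seen, measured 16.1 and 14.8 CPM in shNC, 22.5 and 23.3 CPM in shHMGA2-1 and 29.02 and 31.2 CPM in shHMGA2-2 and rose by 0.57 ± 0.11 and 0.96 ± 0.11. NDUFB5 and NDUFV3 were the genes of complex I that fell in shHMGA2-2, by 0.51 and 0.24 on the log2 scale (adjusted p = 6.19e-06 and 0.0417).

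**Figure D3:**
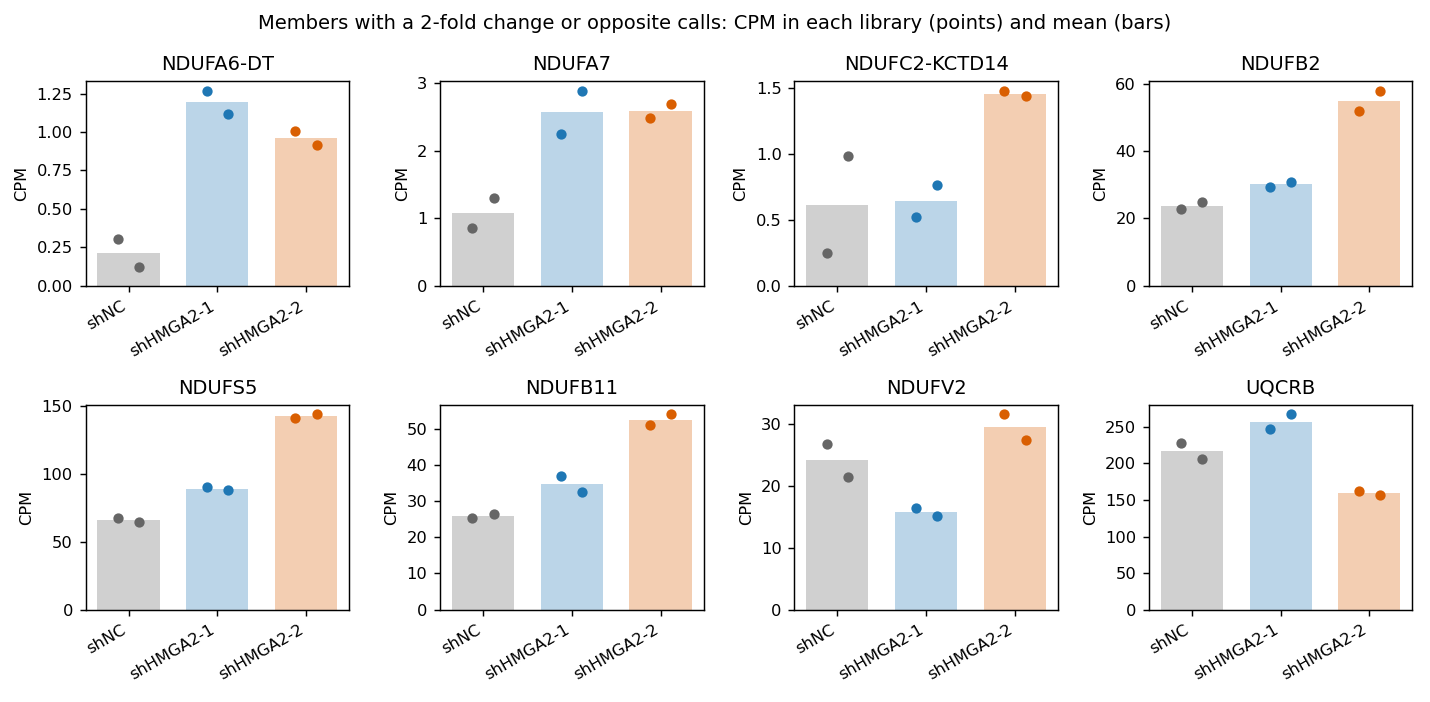
CPM of the 6 members that changed at least 2-fold and of NDUFV2 and UQCRB in each library (points) with the mean of the 2 libraries (bars), for shNC, shHMGA2-1 and shHMGA2-2. NDUFB2, NDUFS5 and NDUFB11 climb in 2 steps to the highest values in shHMGA2-2, whereas NDUFV2 is lowest in shHMGA2-1 and UQCRB in shHMGA2-2.

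In complex II both head subunits rose in shHMGA2-2, and neither membrane anchor did. SDHA, which oxidizes succinate, measured 58.1 and 56.1 CPM in shNC, 70.7 and 70.9 CPM in shHMGA2-1 and 87.9 and 90.5 CPM in shHMGA2-2. It rose in separate steps by 0.31 ± 0.08 in shHMGA2-1 and 0.64 ± 0.08 in shHMGA2-2 (adjusted p = 0.00409 and 2e-07, edgeR), the first of which did not hold without shNC replicate 2 (adjusted p = 0.0841). SDHB, the iron-sulphur subunit, measured 60.05 and 59.8 CPM in shNC, 63.4 and 63.2 CPM in shHMGA2-1 and 94.7 and 91.9 CPM in shHMGA2-2. All knockdown libraries were above the controls, but the change passed the test in shHMGA2-2 alone, at 0.64 ± 0.08 (adjusted p = 1.99e-07), with 0.08 ± 0.08 in shHMGA2-1 (adjusted p = 0.488). SDHD, by contrast, measured 126 and 119 CPM in shNC, 105 and 112 CPM in shHMGA2-1 and 109 and 107 CPM in shHMGA2-2. It lay lower in all 4 knockdown libraries and fell by 0.18 ± 0.07 in shHMGA2-2 (adjusted p = 0.0365), a call that was lost under 10 of 14 alternatives. SDHC had log2 fold changes of 0.11 and -0.17 that did not pass the test. The table also lists the SDHA pseudogenes SDHAP1 with 252 to 360 counts, SDHAP3 with 13 to 234 and SDHAP4 with 518 to 1030, and reads of SDHA may have been divided among them.

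The promoter of SDHA carries a repeated motif. In the 170 bases before its start site (chr5:218150-218319, GRCh38.p14, plus strand), the motif of NRF1, a transcription factor known for nuclear genes of the respiratory chain, matched 4 times at a spacing of 49 bases. The matches, shown in capitals, begin 166, 117, 68 and 19 bases before the start.
SDHA: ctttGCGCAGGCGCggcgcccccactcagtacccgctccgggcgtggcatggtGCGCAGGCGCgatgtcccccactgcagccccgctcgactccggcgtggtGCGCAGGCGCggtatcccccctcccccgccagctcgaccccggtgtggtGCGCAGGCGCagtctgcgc

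Complex III was mixed. Of its 9 tested genes, 3 rose and 0 fell in shHMGA2-1 (33.3% and 0%, beside 15.8% and 17.6% of all tested genes). In shHMGA2-2, 4 rose and 2 fell (44.4% and 22.2%, beside 29.5% and 29.2%). UQCRQ, a small subunit near the coenzyme Q site, measured 53.8 and 45.3 CPM in shNC, 65.95 and 56.9 CPM in shHMGA2-1 and 65.1 and 71.2 CPM in shHMGA2-2. It was above the controls in all knockdown libraries and rose by 0.31 ± 0.10 and 0.46 ± 0.10 (adjusted p = 0.0166 and 0.000278, edgeR). The first call was lost under 5 of 14 alternatives, among them DESeq2 (0.0646) and the fit without shNC replicate 2 (log2 fold change 0.19). UQCR10 measured 33.96 and 29.7 CPM in shNC, 39.5 and 36.95 CPM in shHMGA2-1 and 36.5 and 40.3 CPM in shHMGA2-2. Its changes of 0.26 ± 0.10 and 0.27 ± 0.10 passed narrowly (adjusted p = 0.0489 and 0.0258) and were lost under 9 and 4 of 14 alternatives. Both were lost under DESeq2 (0.199 and 0.129) and without shNC replicate 2 (log2 fold changes 0.17 and 0.18). UQCRH measured 94.1 and 91.2 CPM in shNC, 103 and 103 CPM in shHMGA2-1 and 149 and 154 CPM in shHMGA2-2. It rose by 0.71 ± 0.07 in shHMGA2-2 (adjusted p = 6.78e-09), with 0.15 ± 0.07 in shHMGA2-1 (adjusted p = 0.112). UQCRHL, a near-identical copy of UQCRH, had 46 to 85 counts and a log2 fold change of 0.69 ± 0.23 in shHMGA2-2 (adjusted p = 0.0134), which was lost without either shNC library (0.057 and 0.0643), without shHMGA2-2 replicate 2 (0.0917) and with DESeq2 (0.155). UQCRHL is uncertain because reads may have been divided between the copies.

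UQCRB was the second member called in opposite directions. It measured 227 and 205 CPM in shNC, 248 and 267 CPM in shHMGA2-1 and 162 and 157 CPM in shHMGA2-2. Both shHMGA2-1 libraries lay above the controls and both shHMGA2-2 libraries below them. UQCRB rose by 0.25 ± 0.07 in shHMGA2-1 (adjusted p = 0.00662, edgeR), a call that was lost without shNC replicate 2 (0.18, adjusted p = 0.213), and fell by 0.44 ± 0.07 in shHMGA2-2 (adjusted p = 8.73e-06). The lines differed by -0.69 ± 0.07 (adjusted p = 1.15e-08). Together NDUFV2 and UQCRB were 2 of 81 members called in opposite directions, beside 3.16% of all tested genes, and this number was 0 without shNC replicate 2 (beside 1.42%), 1 without shHMGA2-2 replicate 1 (2.29%), and 4 and 5 without shHMGA2-1 replicates 1 and 2 (3.8% and 3.79%). UQCRC2, a core subunit, measured 104 and 104 CPM in shNC, 92.5 and 90.1 CPM in shHMGA2-1 and 84.7 and 83.8 CPM in shHMGA2-2 and fell by 0.30 ± 0.07 in shHMGA2-2 (adjusted p = 0.00121), while UQCRC1 and the Rieske iron-sulphur protein UQCRFS1 had log2 fold changes from -0.01 to 0.12 in both lines that did not pass the test.

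In complex IV, 6 of 11 tested genes rose and 0 fell in shHMGA2-1 (54.55% and 0%, beside 15.8% and 17.6% of all tested genes). In shHMGA2-2, 4 rose and 1 fell (36.4% and 9.09%, beside 29.5% and 29.2%). COX6A1, the widely expressed form of subunit 6A, measured 99.7 and 93.1 CPM in shNC, 128 and 126 CPM in shHMGA2-1 and 138 and 145 CPM in shHMGA2-2. The knockdown libraries were clear of the controls, and COX6A1 rose by 0.40 ± 0.07 and 0.56 ± 0.07 (adjusted p = 0.000122 and 4.7e-07, edgeR). COX8A measured 104 and 98.4 CPM in shNC, 124 and 112 CPM in shHMGA2-1 and 139.8 and 145 CPM in shHMGA2-2 and rose by 0.23 ± 0.08 and 0.49 ± 0.07 (adjusted p = 0.0215 and 4.21e-06). Its call in shHMGA2-1 was lost under 5 of 14 alternatives, among them DESeq2 (0.0609). It was also lost without shNC replicate 2 or 1 (log2 fold changes 0.19 and 0.26). COX5A, a matrix-side subunit, measured 69.6 and 69.6 CPM in shNC, 77.4 and 81.02 CPM in shHMGA2-1 and 99.8 and 107 CPM in shHMGA2-2, all above the controls, and passed the test in shHMGA2-2 with 0.57 ± 0.08 (adjusted p = 9.65e-07). COX4I1, the widely expressed form of subunit 4, measured 125 and 130.3 CPM in shNC, 139.6 and 132 CPM in shHMGA2-1 and 145 and 146 CPM in shHMGA2-2, and its change in shHMGA2-2 of 0.19 ± 0.07 (adjusted p = 0.0232) was lost under 7 of 14 alternatives. COX7A2 and COX6B1 rose in shHMGA2-1 and not in shHMGA2-2. COX7A2 measured 88.3 and 78.7 CPM in shNC, 111 and 111 CPM in shHMGA2-1 and 81.2 and 83.3 CPM in shHMGA2-2, with a change of 0.41 ± 0.08 in shHMGA2-1 (adjusted p = 0.000226) and a difference between the lines of -0.43 ± 0.08 (adjusted p = 5.95e-05). COX6B1 changed by 0.25 ± 0.08 in shHMGA2-1 (adjusted p = 0.0242), a call lost under 6 of 14 alternatives. Among these were the fits without shNC replicate 1 or 2 (log2 fold changes 0.28 and 0.22). The difference of COX6B1 between the lines did not pass (adjusted p = 0.191). COX7A2L, known for joining complexes III and IV into supercomplexes, measured 109 and 103 CPM in shNC, 114 and 121 CPM in shHMGA2-1 and 94.7 and 86.1 CPM in shHMGA2-2 and fell by 0.23 ± 0.08 in shHMGA2-2 (adjusted p = 0.0133), a call lost under 5 of 14 alternatives. COX7B measured 33.5 and 33.6 CPM in shNC, 38.9 and 38.6 CPM in shHMGA2-1 and 35.9 and 37.96 CPM in shHMGA2-2 and did not pass the test in either line.

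In complex V, 7 of 18 tested genes rose and 0 fell in shHMGA2-1 (38.9% and 0%, beside 15.8% and 17.6% of all tested genes). In shHMGA2-2, 9 rose and 1 fell (50% and 5.56%, beside 29.5% and 29.2%). ATP5IF1, the inhibitor that stops the enzyme from running backwards, measured 51.6 and 48.01 CPM in shNC, 66.7 and 59.7 CPM in shHMGA2-1 and 92.7 and 103 CPM in shHMGA2-2. The lines formed separate steps, and ATP5IF1 rose by 0.34 ± 0.09 and 0.97 ± 0.09 (adjusted p = 0.00403 and 9.56e-10, edgeR), the first of which was lost without shNC replicate 2 (0.29, adjusted p = 0.102). Of the catalytic head, ATP5F1B measured 553 and 554 CPM in shNC, 584 and 536 CPM in shHMGA2-1 and 656 and 665 CPM in shHMGA2-2 and rose by 0.25 ± 0.06 in shHMGA2-2 (adjusted p = 0.000774), with 0.02 ± 0.06 in shHMGA2-1. ATP5F1A rose more in shHMGA2-2, by 0.58 ± 0.06 (adjusted p = 5.54e-09). ATP5F1C and ATP5F1E rose there by 0.28 ± 0.07 and 0.26 ± 0.07 (adjusted p = 0.00125 and 0.00434). ATP5F1D had -0.03 ± 0.10 there and did not pass. None of ATP5F1A, ATP5F1C, ATP5F1D and ATP5F1E passed in shHMGA2-1. ATP5PD, subunit d of the peripheral stalk, measured 89.9 and 77.1 CPM in shNC, 112 and 111 CPM in shHMGA2-1 and 93.7 and 91.7 CPM in shHMGA2-2 and rose by 0.42 ± 0.08 in shHMGA2-1 (adjusted p = 0.000237), with 0.15 ± 0.08 in shHMGA2-2 (adjusted p = 0.115). ATP5PO measured 35.5 and 29.98 CPM in shNC, 37.6 and 36.1 CPM in shHMGA2-1 and 30.8 and 32.2 CPM in shHMGA2-2 and did not pass in either line.

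Of the genes of the c ring, ATP5MC1 measured 70.01 and 62.9 CPM in shNC, 72.8 and 57.9 CPM in shHMGA2-1 and 46.9 and 50.8 CPM in shHMGA2-2 and fell by 0.44 ± 0.10 in shHMGA2-2 (adjusted p = 0.000533, edgeR), which limma on FPKM did not call (0.0701 and 0.0674). ATP5MC2 measured 57.8 and 61.6 CPM in shNC, 75.6 and 64.6 CPM in shHMGA2-1 and 49.99 and 54.3 CPM in shHMGA2-2, with log2 fold changes of 0.23 in shHMGA2-1 and -0.19 in shHMGA2-2 that missed the threshold and a difference between the lines of -0.43 ± 0.09 (adjusted p = 0.000386). ATP5MC3, the highest of the 3 in FPKM, measured 165 and 148 CPM in shNC, 169 and 156 CPM in shHMGA2-1 and 152 and 161 CPM in shHMGA2-2 and had log2 fold changes of 0.05 and 0.00. Of the membrane subunits beside the c ring, ATP5ME, ATP5MF, ATP5MG and ATP5MJ rose in both lines, whereas ATP5MK rose in shHMGA2-1 (0.32 ± 0.09, adjusted p = 0.00607) and had -0.10 ± 0.09 in shHMGA2-2 (adjusted p = 0.351), a difference between the lines of -0.42 ± 0.09 (adjusted p = 0.000291). ATP5ME, subunit e at the dimer interface, overlaps MYL5 on the other strand. Counts of MYL5 were 79 and 97 with shNC, 140 and 95 with shHMGA2-1, and 166 and 240 with shHMGA2-2, and its part was not tested. ATP5ME measured 12.9 and 11.1 CPM in shNC, 15.7 and 16.8 CPM in shHMGA2-1 and 22.6 and 23.7 CPM in shHMGA2-2. All its knockdown libraries were above the controls, with changes of 0.44 ± 0.13 and 0.95 ± 0.13 (adjusted p = 0.0102 and 5.3e-07), the first of which was lost without shNC replicate 2 (adjusted p = 0.159) and with DESeq2 (0.0839). The stretch before its start site (chr4:674277-674501, GRCh38.p14, minus strand) is shown as the other promoter with repeated NRF1 matches among members that rose in both lines. The matches, in capitals, begin 219 and 174 bases before the start. Repeated matches were also found for NDUFB4 (3), NDUFA3, NDUFA8 and UQCR11 (2 each), none of which was called higher in both lines.
ATP5ME: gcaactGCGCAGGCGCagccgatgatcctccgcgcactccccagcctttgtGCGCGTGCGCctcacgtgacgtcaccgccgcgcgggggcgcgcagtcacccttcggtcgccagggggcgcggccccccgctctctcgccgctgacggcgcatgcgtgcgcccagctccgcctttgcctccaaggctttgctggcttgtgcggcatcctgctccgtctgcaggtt

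The knockdown lines also differed from each other. Between them, 37 of 81 members passed the test, 23 higher and 14 lower in shHMGA2-2 (28.4% and 17.3%), beside 24.5% and 25.7% of all tested genes, and the median difference was 0.01 on the log2 scale. None of the 37 reached a 2-fold change, and NDUFC2-KCTD14, with a log2 difference of 1.17 ± 0.51, did not pass the test (adjusted p = 0.0576). When the 4 knockdown libraries were treated as 1 group, the difference between the lines counted as error and 1 member passed, COX6A1 (adjusted p = 0.047, edgeR), beside 5.26% of all tested genes, and 25 members (30.9%) had an unadjusted p under 0.05 beside 25.5% of all tested genes.

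Some of the larger changes in shHMGA2-2 lay in stretches of the genome where the surrounding genes were higher as well. Each member was set beside the median of up to 20 tested genes on either side of it, which gave 40 genes for all but SDHA (23) and ATP5ME (29), near chromosome ends. Around SDHB on chromosome 1 that median was 0.68 in shHMGA2-2, above the 0.64 of SDHB itself, and around SDHA on chromosome 5 it was 0.72 beside 0.64. UQCRHL stood at 0.69 beside 0.63, UQCRH at 0.71 beside 0.50 and ATP5ME at 0.95 beside 0.76. NDUFS5 (1.11 beside 0.56), NDUFB2 (1.20 beside 0.71), NDUFB11 (1.02 beside 0.76) and ATP5IF1 (0.97 beside 0.50) exceeded raised surroundings. COX6A1 (0.56 beside 0.04), UQCRQ (0.46 beside 0.02) and NDUFC1 (0.96 beside -0.42) stood above surroundings that were level or lower. For the opposite calls, the median around NDUFV2 was -0.34 in shHMGA2-1 and 0.07 in shHMGA2-2, and around UQCRB it was -0.04 and -0.48. In the same line NDUFV1 (0.61 beside 0.53) and NDUFB5 (-0.51 beside -0.45) lay close to theirs. Over the 81 members, 65 in shHMGA2-1 and 57 in shHMGA2-2 lay above their surroundings, with a median excess of 0.16 and 0.19. The share of all tested genes that lay above theirs was not computed. Changes of members and medians of their surroundings correlated with r = 0.15 in shHMGA2-1 and 0.54 in shHMGA2-2. By chromosome, the members' median in shHMGA2-2 was 0.67 for the 8 on chromosome 1 and 0.96 for the 2 on chromosome 4. The part of genome position in the members' changes was not tested.

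**Figure D4:**
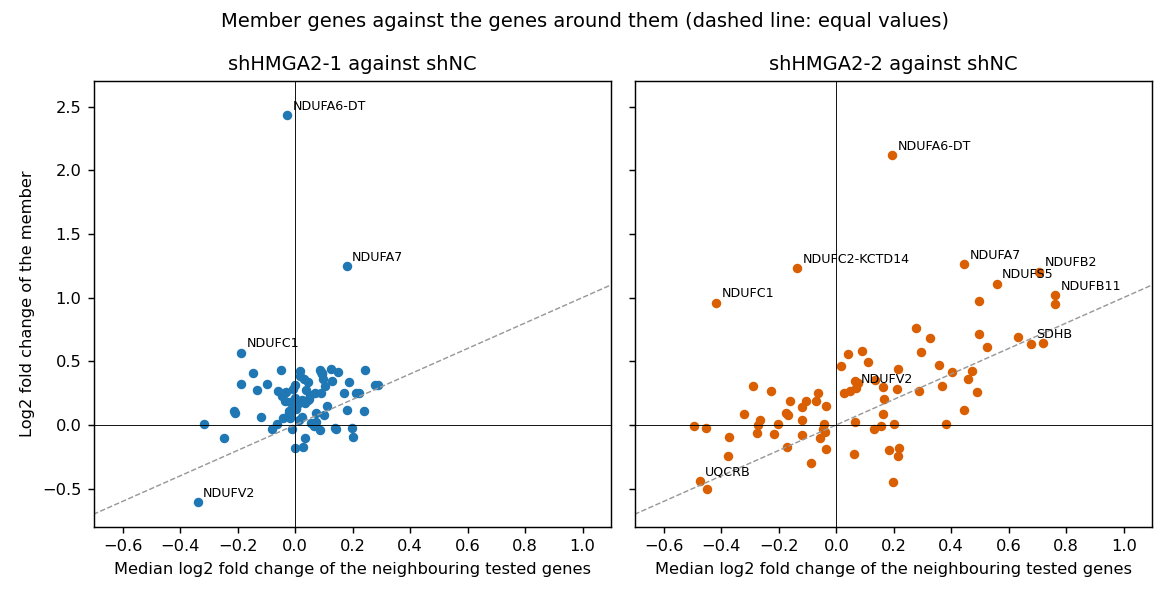
Log2 fold change of each tested member (vertical axis) against the median of the tested genes around it (horizontal axis), for shHMGA2-1 at left and shHMGA2-2 at right, with equal values on the dashed line. In shHMGA2-1 the surroundings span -0.34 to 0.29 and 65 of 81 members lie above the line, whereas in shHMGA2-2 the surroundings reach 0.76 and SDHB lies close to the line.

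Many respiratory chain mRNAs are short, and short genes as such were somewhat higher in the knockdown lines. Among 963 tested protein-coding genes with coding transcripts under 1000 bases, members left out, the median log2 fold change was 0.09 in shHMGA2-1 and 0.11 in shHMGA2-2, between the medians of the members (0.19 and 0.20) and those of 11683 longer genes (-0.01 in both). Of these short genes 21.1% rose and 12.5% fell in shHMGA2-1, and 35% rose and 22.9% fell in shHMGA2-2. This comparison was added after the data had been seen, and the part of transcript length in the members' changes was not tested.

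Other genes of mitochondrial respiration differed from list to list. Of all tested genes, 15.8% rose and 17.6% fell in shHMGA2-1, and 29.5% rose and 29.2% fell in shHMGA2-2. Of 13 subunits that the mitochondrial genome encodes, 9 rose and 0 fell in shHMGA2-1 (69.2% and 0%, median 0.18). In shHMGA2-2, 8 rose and MT-CO1 fell (61.5% and 7.69%, median 0.22). MT-CO2 rose by 0.43 and 0.74, MT-ND4 by 0.25 and 0.65, and MT-ND6 by 0.32 and 0.71 on the log2 scale. Of 56 assembly factors, which build the complexes without staying in them, 5 rose and 6 fell in shHMGA2-1 (8.93% and 10.7%). In shHMGA2-2, 17 of the factors rose and 17 fell (30.4% in each direction), and the medians were 0.02 in both lines. SURF1, a factor for complex IV, rose by 1.19 in shHMGA2-2, and the ATP synthase factors ATPAF2 and FMC1 by 1.27 and 1.11. Of 81 mitochondrial ribosomal protein genes, a list whose symbols also took in divergent transcripts, 6 rose and 5 fell in shHMGA2-1 (7.41% and 6.17%). In shHMGA2-2, 21 of this list rose and 21 fell (25.9% in each direction). The largest changes there, in shHMGA2-2, were -1.69 for MRPL53, -2.44 for MRPS30-DT and 1.76 for MRPL20-DT. NDUFAB1, CYC1 and CYCS are the acyl carrier subunit of complex I, cytochrome c1 of complex III and cytochrome c, and fall outside the symbol rule. NDUFAB1 fell by 0.76 and 0.35 in shHMGA2-1 and shHMGA2-2, CYC1 fell by 0.39 in shHMGA2-2, and CYCS rose by 0.21 in shHMGA2-2.

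Among electron suppliers, genes of the citric acid cycle and pyruvate dehydrogenase, 3 of 18 rose and 2 fell in shHMGA2-1 (16.7% and 11.1%). In shHMGA2-2, 10 rose and 6 fell (55.6% and 33.3%). The shares of all tested genes were 15.8% and 17.6% in shHMGA2-1, and 29.5% and 29.2% in shHMGA2-2. IDH2, the mitochondrial isocitrate dehydrogenase that makes NADPH, rose by 1.12 and 1.93. SUCLG2, of succinyl-CoA ligase, fell by 0.89 and 1.05, and PDHA1, of pyruvate dehydrogenase, rose by 0.93 in shHMGA2-2. Of 13 genes for coenzyme Q synthesis, 1 rose and 2 fell in shHMGA2-1 (7.69% and 15.4%). In shHMGA2-2, 4 of the 13 rose and 2 fell (30.8% and 15.4%). Among them were COQ7 (0.73 and 1.37), COQ4 (1.12 in shHMGA2-2) and PDSS1, which makes the side chain and fell by 0.30 and 1.47. Of 20 regulators, 1 rose and 5 fell in shHMGA2-1 (5% and 25%), and 3 rose and 5 fell in shHMGA2-2 (15% and 25%). PPARGC1A, the coactivator of mitochondrial biogenesis, fell by 1.85 and 2.91 from a low level of 0.85 FPKM in shNC. TFB2M, a transcription factor of the mitochondrial genome, fell by 0.86 in shHMGA2-2, and SSBP1, its single-strand binding protein, rose by 1.03. NRF1, GABPA and YY1, whose motifs were searched in the promoters, had log2 fold changes between -0.10 and 0.07 in both lines that did not pass the test.

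**Figure D5:**
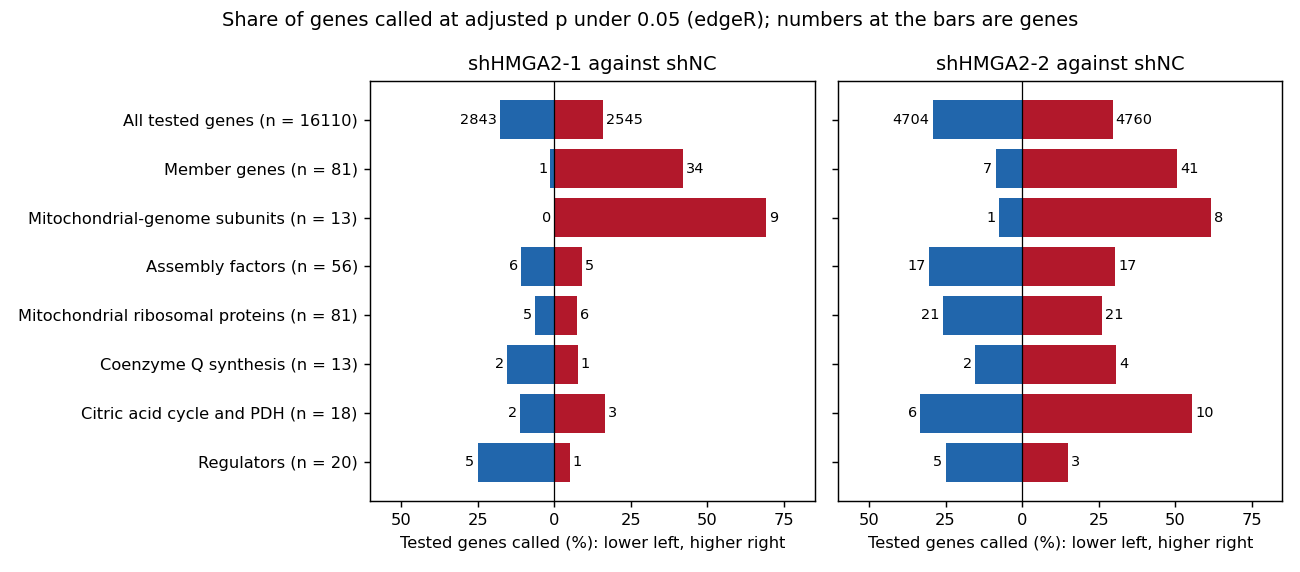
Percent of tested genes called higher (right, red) or lower (left, blue) at an adjusted p under 0.05 against shNC, for all tested genes, the member genes and 6 other lists, with the number of genes at each bar. In shHMGA2-1 the members (34 higher, 1 lower) and the subunits of the mitochondrial genome (9 higher, 0 lower) lean to the right, while assembly factors and mitochondrial ribosomal proteins are nearly balanced in both lines.

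Promoter windows of RefSeq, from 250 bases before to 50 after a start site in GRCh38.p14, were found for 73 members, some with several start sites and 86 windows in all. The NRF1 motif, searched on both strands, matched in 20.9% of member windows, beside 9.74% of the windows of all tested genes and 5.78% of all windows. It was found in 5 of 8 windows of complex III, 2 of 3 of complex II, 4 of 18 of complex V, 6 of 41 of complex I and 1 of 16 of complex IV, where UQCRFS1 and its divergent transcript share theirs. The ETS motif CCGGAAGTG was found in 4.65% of member windows beside 4.13% for tested genes and 2.36% for all windows. The YY1 motif AAGATGGCG was found in 12.8% of member windows beside 3.27% and 1.75%. NDUFA6 and its divergent transcript share a match, and both windows of ATP5PF hold the same one. The YY1 motif overlaps with neither of the other motifs as written. A match describes the letters of the window and says nothing on binding in these cells.

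The YY1 matches are shown because they lie at a shared place. In 8 members the letters stood 11 to 26 bases after the start base, counted from 1, in the direction of transcription, and in all 8 the ATG within them was an annotated start codon in GENCODE version 29. This position was noticed after the matches had been seen. Between 10 bases before and 50 after the start, the letters were found in that direction in 9.3% of member windows and 0.951% of all windows. The share for windows of tested genes alone was not computed at this position. Over whole windows and both strands, the motif was found in 3.27% of the windows of tested genes and 1.75% of all windows. Of the 8 members, NDUFA7, SDHB and NDUFS7 rose in shHMGA2-2, with log2 fold changes of 1.26, 0.64 and 0.33, whereas the changes of NDUFA9, NDUFB8, NDUFS4, UQCRC1 and NDUFA6 in that line did not pass the test. In shHMGA2-1, NDUFA7, NDUFA6 and NDUFS4 rose, with log2 fold changes of 1.25, 0.43 and 0.27, and the other 5 did not pass. For each member 25 bases around the match are given 5′ to 3′ (GRCh38.p14) with the motif in capitals.
NDUFA6, chr22:42090731-42090755, minus strand: gctttggcAAGATGGCGgggagcgg
NDUFA7, chr19:8321345-8321369, minus strand: gcggacggAAGATGGCGtccgccac
NDUFA9, chr12:4649116-4649140, plus strand: tgtgggaaAAGATGGCGgctgccgc
NDUFB8, chr10:100529838-100529862, minus strand: agaaggtgAAGATGGCGgtggccag
NDUFS4, chr5:53560652-53560676, plus strand: cctgcagcAAGATGGCGgcggtgtc
NDUFS7, chr19:1383916-1383940, plus strand: ccgaggccAAGATGGCGgtgctgtc
SDHB, chr1:17054006-17054030, minus strand: caggagccAAGATGGCGgcggtggt
UQCRC1, chr3:48609607-48609631, minus strand: gcagctggAAGATGGCGgcgtccgt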

How the data were processed

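RNA-seq libraries of 3 MDA-MB-231 lines, 2 per line, were grouped by their sample titles. The authors deposited 1 table that lists, for every gene, the raw count and the FPKM of each library. Per the submitters' processing notes, HISAT2 version 2.2.1, HTSeq version 0.6.1 and GRCh38.p13 were used, with no roles given, and the strand setting and annotation release are not given in the sources used here. The deposited FPKM values were recomputed from counts, exonic length and library totals for 100% of values within 0.0051. Counts were tested with edgeR version 4.0.16 in R version 4.3.3 (TMM, factors 0.958 to 1.05, filterByExpr, quasi-likelihood test, Benjamini-Hochberg adjustment over 16110 genes) in a model with 3 groups. The fits were also run on simulated counts with the same spread between libraries for every gene. That setting is simpler than the data, and no conclusion is drawn from it. CPM values use the TMM library sizes. The floor of 3 counts covers counting error only. SEs were taken from the edgeR fit, and SDs from the 2 libraries of a line. Alternatives were DESeq2 version 1.42.0, limma version 3.58.1 on log2(FPKM + 1) and log2(FPKM + 0.1), other scalings and filters, a replicate block and each library left out.

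Members and lists were chosen with earlier results of these data known, so that no list received a test of its own. Members were named where they had, among genes with adjusted p under 0.05, the 2 largest changes of a complex in a line, opposite directions or a 2-fold change, where they had the highest or lowest tested FPKM of a complex in shNC, or as tissue isoforms. In other lists the 3 largest changes were named. Members named beyond this rule, such as NDUFC1, NDUFB5 or UQCRC2, were chosen after their values were seen. Gene positions of all 92 members matched GENCODE version 29 in chromosome and strand. RefSeq promoter sequences were searched in python version 3.11.15. Libraries of a line differed beyond counting noise (chi-square per degree of freedom 2.03, 6.49 and 3.02 for shNC, shHMGA2-1 and shHMGA2-2), so that all 6 were kept as samples. Other columns of sample values numbered 0. The values of 1 tested member are not reported here, though it entered every count and median.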

Additional observations from a re-analysis of the deposited data

Results flagged for a closer look

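Between the knockdown lines, 37 of 81 tested members differed by edgeR's quasi-likelihood test of shHMGA2-2 against shHMGA2-1, which is the test of the difference between their effects because both are compared with the same shNC libraries. These 37 made up 45.7% of the tested members, below the 50.2% of all tested genes that differed. Of the members 28.4% were higher and 17.3% lower in shHMGA2-2, beside 24.5% and 25.7% of all tested genes. NDUFV2 and UQCRB were called in opposite directions against shNC, 2 of 81 tested members beside 3.16% of all tested genes. NDUFV2 was higher in shHMGA2-2 than in shHMGA2-1 by 0.89 on the log2 scale (adjusted p = 1.54e-06), and UQCRB differed by -0.69 (adjusted p = 1.15e-08). Groups of 2 libraries were too small for a search for outlying samples.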

How the results depend on the processing

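Counts of members called are given for shHMGA2-1 against shNC (35), shHMGA2-2 against shNC (48), shHMGA2-2 against shHMGA2-1 (37) and all knockdown libraries against shNC (1). RLE size factors gave 35, 48, 37 and 0, upper quartile scaling 45, 53, 40 and 4, no filter 30, 41, 37 and 0, a mean FPKM of at least 1 36, 46, 39 and 2, DESeq2 20, 33, 35 and 9, limma 37, 51 and 35 with either pseudocount and then 5 with a pseudocount of 1 and 7 with 0.1, and an adjusted p under 0.01 20, 33, 34 and 0. The mean of the 2 contrasts in place of the single knockdown group called 42 (51.9%, beside 49.8% of all tested genes). Of all tested genes, 33.4%, 58.7%, 50.2% and 5.26% were called in the reported comparisons. These shares were 34.3%, 60.2%, 50% and 5.25% with upper quartile scaling, 16.4%, 30.1%, 25.2% and 2.21% with no filter, where 90 members were tested, and 22.1%, 37%, 31.6% and 11.6% with DESeq2, where 82 to 84 were. The other alternatives gave 20.4% to 36.5%, 47.8% to 62.9%, 38.6% to 53.9% and 0.0248% to 5.48%. With a library left out the ranges were 10 to 39, 31 to 54, 30 to 44 and 0 to 0, the lone library of a line being assumed to vary like the other groups. The members' median log2 fold changes (0.19, 0.20, 0.01 and 0.19) moved by more than the SD between replicates (0.04) under upper quartile scaling (0.26, 0.32, 0.059 and 0.27, all genes 0.07, 0.14, 0.05 and 0.13), under limma with a pseudocount of 1 (0.24, 0.30 and, for the single group, 0.24) and with 0.1 (0.27, 0.32, 0.063 and 0.27), while left-out libraries gave 0.16 to 0.21, 0.18 to 0.22, -0.04 to 0.053 and 0.17 to 0.22. The cause was not tested.

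Samples of the same replicate number did not deviate together (r = -0.02, 0.00 and -0.10 across genes for the pairs of lines), so the numbers do not pair the samples. With the replicate block 33, 45, 35 and 0 members were called. Of 61 calls for named members, 26 were lost under at least 1 alternative, 18 of them without shNC replicate 2 and 14 with DESeq2, and 0 reversed direction. Depth limits what can be said of NDUFA6-DT, NDUFC2-KCTD14, NDUFA7 and the 11 members that failed the filter.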
